A study of Homo sapiens with 9 samples.

Results

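The SLC25 family are the mitochondrial carriers, and its members were taken here as every row of the count table whose NCBI gene identifier has a symbol made of SLC25A and a number, pseudogenes left out. This gave 48 genes of the 28395 in the table. Transcripts were sequenced from 3 kidney cell lines grown in Plasmax, a medium that follows the nutrient composition of human serum, with 3 libraries per line and no treatment. HK2 is labelled as parental proximal tubuli cells and is an immortalised line from normal kidney. 786-O is the parental clear cell renal cell carcinoma (ccRCC) line, which lacks functional VHL. 786-M1A is its metastatic derivative, so it shares its origin with 786-O. Each kind of cell is represented by a single line. The study's methods describe replicate dishes plated in parallel without saying which library came from which dish. A figure legend of the study gives RNA-seq values as means from 3 independent cultures. The p-values therefore measure only the spread between these libraries. No batch is given in the labels.

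Carriers of this family are small proteins that sit mostly in the inner mitochondrial membrane and exchange a solute of the matrix against one of the cytosol. They move ADP and ATP, phosphate, di- and tricarboxylates, amino acids, nucleotides, cofactors, iron and glutathione, and so connect respiration with biosynthesis in the cytosol. In the proximal tubule, a tissue rich in mitochondria, the aspartate/glutamate, oxoglutarate and citrate carriers tie the malate-aspartate shuttle, the urea cycle enzymes and lipid synthesis to the matrix.

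Library totals ran from 30212291 to 45362428 counts, and levels are given as CPM, the count scaled to a library total of 1e+06 after TMM normalisation in edgeR. Genes averaging fewer than 50 counts were left out of the tests, which kept 12695 genes and 38 of the 48 carriers. The lines were also read against their labels. Of the markers of proximal tubule, LRP2, SLC22A6 and SLC22A8 were at 0 counts in all 9 libraries and AQP1, CUBN and SLC34A1 averaged at most 1.06 CPM in any line, while GGT1 averaged 108, 80.6 and 88.3 CPM and ANPEP 1.75, 112 and 19.8 CPM in HK2, 786-O and 786-M1A. Of the ccRCC markers, CA9 averaged at most 0.0312 CPM in any line, whereas EGLN3 averaged 1.72, 50 and 128 CPM and VEGFA 19.4, 163 and 330 CPM in the same order. PAX8 averaged 167, 165 and 182 CPM, PAX2 3.49, 25.0 and 10.7 CPM, VIM 1400, 4850 and 6550 CPM and ANGPTL4, called in no comparison, 2.58, 3.12 and 3.25 CPM. The summed level of 9 markers of blood, endothelial, stromal and distal tubule cells ran from 54.4 to 63.2 CPM in HK2. It ran from 264 to 333 CPM in 786-O and from 297 to 301 in 786-M1A. Most of it was COL1A1 in HK2 and 786-O and PDGFRB in 786-M1A. COL1A1 averaged 53.8, 292 and 16.5 CPM and PDGFRB 5.0, 2.6 and 282 CPM in HK2, 786-O and 786-M1A. PTPRC, CD3E and UMOD were at 0. The part of these differences in the carrier levels was not tested.

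In 786-O against HK2, 32 of the 38 carriers tested passed an adjusted p of 0.05, 15 of them higher and 17 lower. The ornithine carrier SLC25A15, the carnitine/acylcarnitine carrier SLC25A20, the dicarboxylate carrier SLC25A10 and the coenzyme A carrier SLC25A42 were among the higher ones, and the pyrimidine nucleotide carrier SLC25A33, the ADP/ATP carrier SLC25A4 and the basic amino acid carrier SLC25A29 among the lower ones. Over all genes tested 84.2% passed in this comparison, 41.6% higher and 42.6% lower, so the share of carriers was that of the background. In bulk RNA, fewer cells with a transcript and less of it per cell cannot be told apart. With a 2-fold difference in addition, 1 carrier was higher and 5 were lower, that is 15.8% of the carriers, where 9.18% of all genes were 2-fold higher and 13.1% 2-fold lower. The libraries of both lines did not overlap for 33 carriers, against 85.5% of all genes. The median log2 fold change of the carriers was -0.089 and that of all genes -0.013, and the median size regardless of sign was 0.39 for carriers and 0.47 for all genes.

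In 786-M1A against HK2, 29 carriers passed, 13 higher and 16 lower, led by SLC25A10 on the higher side and by SLC25A33, SLC25A4 and the orphan carrier SLC25A35 on the lower. These were 76.3% of the carriers, where 84.9% of all genes tested passed, 41.6% higher and 43.3% lower. A 2-fold difference was reached by 1 carrier upward and 5 downward, beside 10.4% and 15.0% of all genes. For 31 carriers the libraries did not overlap, against 85.0% of all genes. The median log2 fold change was -0.082 for the carriers and -0.019 for all genes, and the median size 0.38 and 0.51. Both comparisons use the same HK2 libraries and are therefore not independent of each other.

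Between 786-M1A and 786-O the carriers differed by less. Of 38 tested, 18 passed, 9 higher and 9 lower in 786-M1A, where 56.0% of all genes passed, 27.9% higher and 28.0% lower. The citrate carrier SLC25A1 and SLC25A10 had the largest positive and SLC25A4 and SLC25A42 the largest negative differences. None of the carriers tested by edgeR reached a 2-fold difference, with or without adjustment of p, and DESeq2 gave 0 as well. At an unadjusted p under 0.05 the number regardless of size was 19. Of all genes, 2.03% were called and 2-fold higher and 4.55% called and 2-fold lower. The libraries did not overlap for 20 carriers, against 61.6% of all genes. The median log2 fold change was 0.013 for carriers and 0.0 for all genes, and the median size 0.14 and 0.17.

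**Figure D1:**
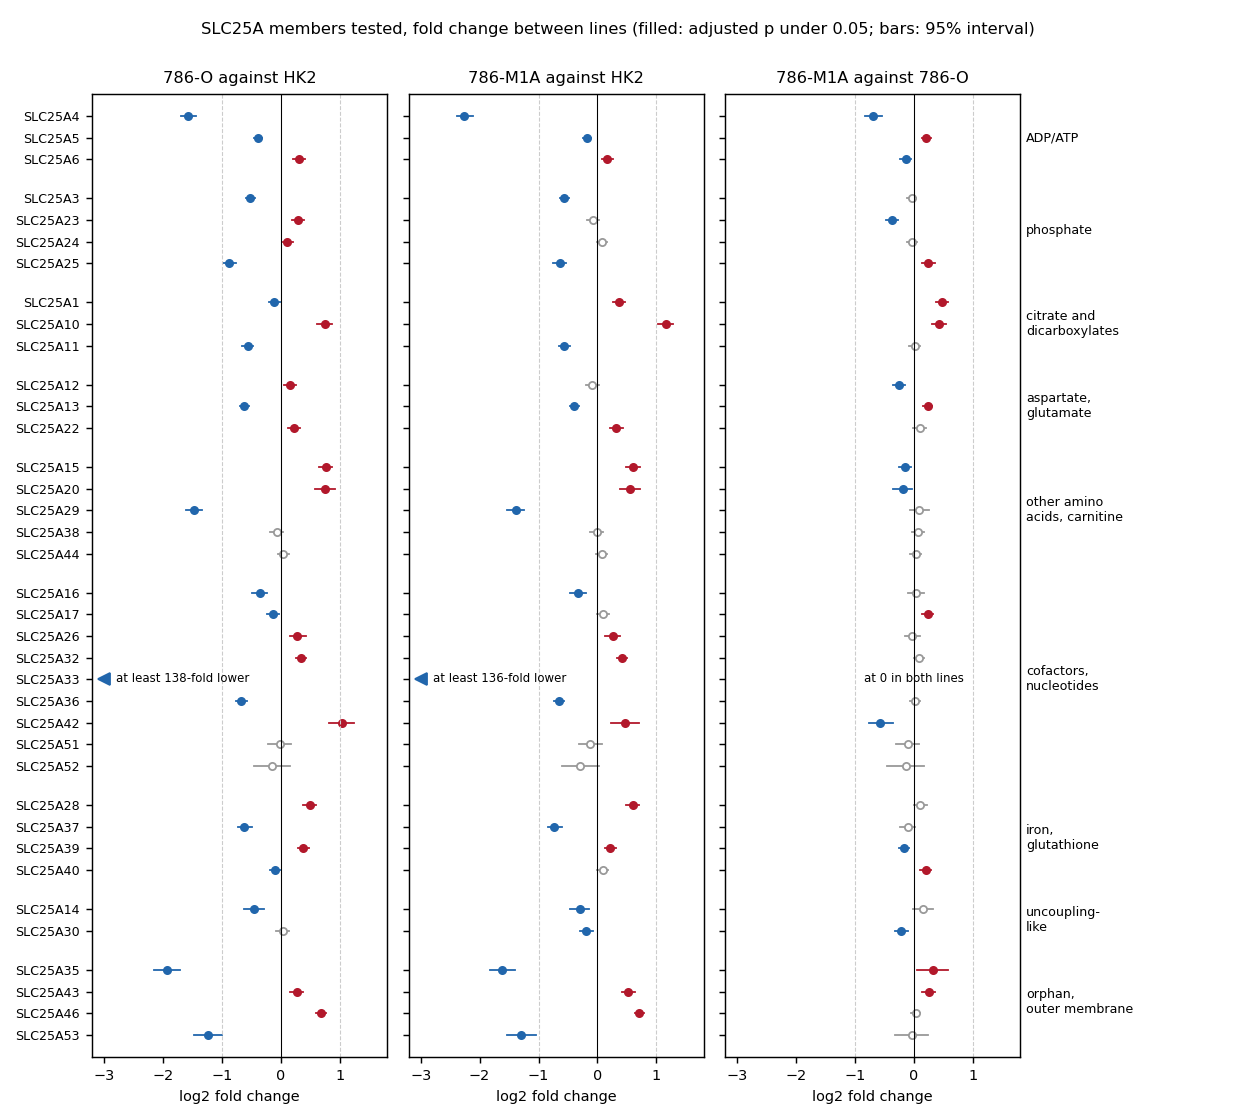
Log2 fold change of 37 of the carriers tested in the 3 comparisons, one panel each, with genes grouped by the solute carried. Filled points have an adjusted p under 0.05 (red higher, blue lower), open grey points do not, bars are 95% intervals and the triangles mark SLC25A33, which had 0 counts in both cancer lines. Most points lie within 1 log2 unit of 0, and in the right panel all do.

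Of the carriers tested, the same 5 were at least 2-fold lower in both cancer lines than in HK2: SLC25A33, SLC25A35, SLC25A4, SLC25A29 and SLC25A53. Of all genes, 13.1% were 2-fold lower in 786-O and 15.0% in 786-M1A, and the share lower in both was not counted. The 2 comparisons share the HK2 libraries, and SLC25A33 passed the filter through HK2 alone. The start regions of these 5 carriers are shown because no other carrier tested was called at least 2-fold apart from HK2 in both lines. RefSeq promoters (250 bases before to 50 after the start, GRCh38.p14) were found for 4 of them and are printed 5′ to 3′ on the strand of the gene. Capitals mark CACGTG, the E-box, or ACGTG, a form of the core of the hypoxia response element, on either strand. Other forms of that core were not searched. ACGTG lies within CACGTG, so an E-box counts for both. The regions are chr1:9539215-9539514 (plus strand) for SLC25A33, chr4:185143016-185143315 (plus strand) for SLC25A4, chr14:100306395-100306694 (minus strand) for SLC25A29 and chrX:104156960-104157259 (minus strand) for SLC25A53.
SLC25A33: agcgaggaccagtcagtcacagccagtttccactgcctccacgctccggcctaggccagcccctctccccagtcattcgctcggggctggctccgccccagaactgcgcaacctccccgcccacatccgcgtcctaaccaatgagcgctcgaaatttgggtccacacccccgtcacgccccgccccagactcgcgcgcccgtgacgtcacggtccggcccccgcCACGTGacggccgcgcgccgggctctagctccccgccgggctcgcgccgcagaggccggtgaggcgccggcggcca
SLC25A4: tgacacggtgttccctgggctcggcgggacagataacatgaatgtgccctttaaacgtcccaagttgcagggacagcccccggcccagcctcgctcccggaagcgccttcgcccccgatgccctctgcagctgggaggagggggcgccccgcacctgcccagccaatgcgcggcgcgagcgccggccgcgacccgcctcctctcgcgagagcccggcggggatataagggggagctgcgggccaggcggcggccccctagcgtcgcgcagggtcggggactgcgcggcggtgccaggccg
SLC25A29: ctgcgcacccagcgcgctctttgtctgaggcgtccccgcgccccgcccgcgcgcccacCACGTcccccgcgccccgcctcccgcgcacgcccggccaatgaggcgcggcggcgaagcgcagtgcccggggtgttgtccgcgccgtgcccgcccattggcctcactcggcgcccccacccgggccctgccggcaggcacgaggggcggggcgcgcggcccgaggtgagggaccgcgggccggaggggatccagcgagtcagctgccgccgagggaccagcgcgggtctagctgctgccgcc
SLC25A53: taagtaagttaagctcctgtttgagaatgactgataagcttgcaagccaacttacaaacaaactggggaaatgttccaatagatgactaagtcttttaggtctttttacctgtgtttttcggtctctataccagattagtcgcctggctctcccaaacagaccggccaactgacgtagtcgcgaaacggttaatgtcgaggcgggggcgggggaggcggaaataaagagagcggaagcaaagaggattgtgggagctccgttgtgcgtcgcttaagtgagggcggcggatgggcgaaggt

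The start of SLC25A33 held a single E-box, that of SLC25A29 the letters of ACGTG on the opposite strand, and those of SLC25A4 and SLC25A53 neither. G and C made up 72.7% of the bases for SLC25A33, 73.3% for SLC25A4, 80.0% for SLC25A29 and 49.7% for SLC25A53, where the median over the 10191 promoters of genes tested was 65.7%. Of the 38 carriers tested, 32 had a promoter in the table. ACGTG was present in 9 of these (28.1%) and in 27.2% of the promoters of all genes tested, and CACGTG in 6 (18.8%) and 10.5%. Other motifs searched on both strands were GGGCGG, the SP1 box, in 24 carriers (75.0%, all genes 71.0%), CCGGAAGT, an ETS site, in 3 (9.38%, all genes 9.01%), TATAAA in 2 (6.25%, all genes 5.24%) and GCGCATGC, an NRF1 site, in 0 (all genes 5.69%). A match is only a match of letters, and no binding was measured here.

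The carriers of ADP and ATP exchange cytosolic ADP for ATP made in the matrix. Each of the 3 measured isoforms was called against HK2 in both cancer lines, beside 84.2% and 84.9% of all genes tested. SLC25A5 and SLC25A6 are the isoforms of most dividing and resting tissues, SLC25A4 is that of heart and skeletal muscle, and SLC25A31 is a testis isoform. SLC25A4 (chr4:185143266-185150382) was at 32.0, 33.9 and 31.8 CPM in the HK2 libraries, at 11.6, 10.8 and 10.6 in 786-O and at 7.11, 6.62 and 6.72 in 786-M1A. The 3 lines formed separate levels with HK2 the highest and 786-M1A the lowest. The log2 fold change was -1.57 ± 0.058 (SE, adjusted p = 1.8e-16) in 786-O against HK2, -2.26 ± 0.063 (adjusted p = 1.06e-18) in 786-M1A against HK2 and -0.69 ± 0.071 (adjusted p = 3.54e-08) in 786-M1A against 786-O.

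SLC25A5 (chrX:119468444-119471396) was at 452, 446 and 434 CPM in HK2, at 345, 333 and 336 in 786-O and at 396, 386 and 389 in 786-M1A. It was thus lowest in 786-O and intermediate in 786-M1A, with no overlap of libraries. Its log2 fold changes were -0.39 ± 0.033 (adjusted p = 3.84e-10), -0.18 ± 0.033 (adjusted p = 2.84e-05) and 0.21 ± 0.033 (adjusted p = 1.67e-05) in the 3 comparisons in the order above. SLC25A6, in the pseudoautosomal region (chrX:1386152-1392113), was at 335, 350 and 333 CPM in HK2, at 438, 421 and 397 in 786-O and at 401, 386 and 352 in 786-M1A. Both cancer lines were above HK2, by 0.30 ± 0.045 (adjusted p = 3.9e-06) and 0.16 ± 0.045 (adjusted p = 0.00259). The cancer lines overlapped, and their difference of -0.14 ± 0.045 (adjusted p = 0.013) did not pass without the first 786-O library (adjusted p = 0.102) or without the third library of 786-M1A (adjusted p = 0.098). Annotated pseudogenes numbered 9 for SLC25A5 and 6 for SLC25A6, and SLC25A5 shares 13.18% of its exon bases with the antisense gene SLC25A5-AS1, so reads of these may be split or shared. SLC25A31 had 1 count in 1 HK2 library and 0 in the other 8.

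Per kb of exon, SLC25A5 and SLC25A6 were the 2 highest carriers in every line. SLC25A5 made up 55.2% to 56.7% of the summed level of the 3 isoforms in HK2 libraries, 43.8% to 45.6% in 786-O and 49.5% to 52.3% in 786-M1A. SLC25A6 made up 42.0% to 43.4%, 54.0% to 55.7% and 47.4% to 50.2%. In HK2 every library held more SLC25A5 than SLC25A6, in 786-O every library held less, and in 786-M1A both orders occurred. SLC25A4 made up 1.29% to 1.36% in HK2 libraries, 0.458% to 0.477% in 786-O and 0.276% to 0.291% in 786-M1A. With the length of the canonical transcript in place of all exons, an alternative chosen after the values were seen, SLC25A5 made up between 52.2% and 54.9% in 786-M1A and was the larger in all 3 of its libraries.

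**Figure D2:**
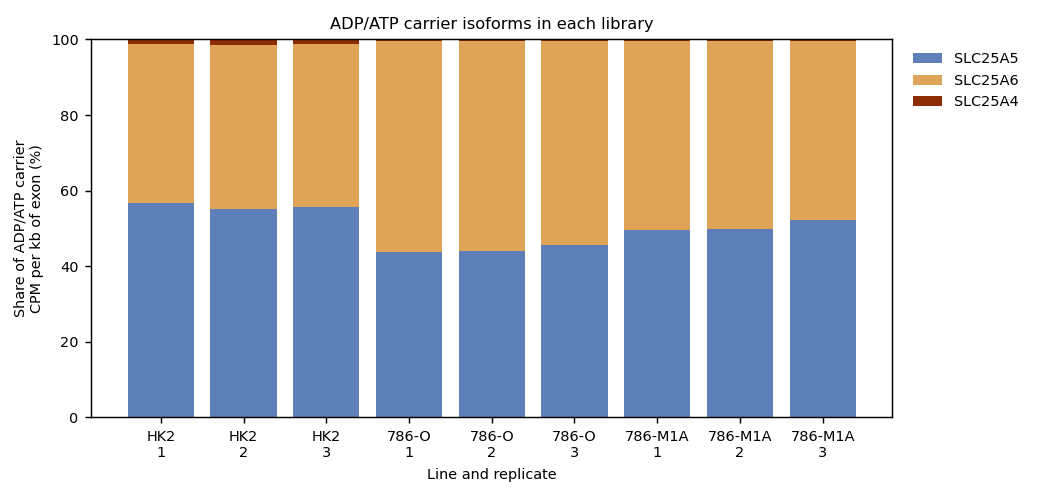
Share of SLC25A5, SLC25A6 and SLC25A4 in their summed level (CPM per kb of exon, percent) in each of the 9 libraries, as stacked bars. SLC25A5 takes 55.2% to 56.7% in HK2 libraries, 43.8% to 45.6% in 786-O and 49.5% to 52.3% in 786-M1A, and SLC25A4 is a thin band at the top in every library.

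The phosphate carrier SLC25A3, which supplies the ATP synthase with phosphate, and the ATP-Mg/phosphate carriers SLC25A23, SLC25A24 and SLC25A25, whose activity depends on calcium, went in different directions. All 4 measured members passed in 786-O against HK2 (2 higher, 2 lower), 2 in 786-M1A against HK2 (both lower) and 2 in 786-M1A against 786-O (1 higher, 1 lower), beside 84.2%, 84.9% and 56.0% of all genes. SLC25A3 was at 620, 652 and 598 CPM in the HK2 libraries, at 444, 430 and 434 in those of 786-O and at 429, 413 and 426 in those of 786-M1A. Both cancer lines lay below HK2, by -0.52 ± 0.036 (adjusted p = 1.45e-11) and -0.56 ± 0.036 (adjusted p = 3.12e-12) on the log2 scale. SLC25A25 was at 37.4, 37.2 and 36.8 CPM in HK2, at 19.4, 21.3 and 19.9 in 786-O and at 24.6, 23.1 and 23.7 in 786-M1A. Its libraries did not overlap between any 2 lines, and the log2 fold changes were -0.88 ± 0.05 (adjusted p = 3.91e-13), -0.64 ± 0.05 (adjusted p = 7.32e-11) and 0.24 ± 0.052 (adjusted p = 0.000629). Of the exon bases of SLC25A25, 11.22% lie opposite SLC25A25-AS1, whose reads cannot be told apart if strand was not used in counting. SLC25A23 was at 79.2, 69.9 and 77.3 CPM in HK2, at 95.8, 89.0 and 92.3 in 786-O and at 74.8, 70.2 and 70.2 in 786-M1A. It was higher in 786-O than in HK2 (0.29 ± 0.048, adjusted p = 7.76e-06) and lower in 786-M1A than in 786-O (-0.37 ± 0.048, adjusted p = 1.23e-06), while the difference of 786-M1A from HK2 had a 95% interval from -0.17 to 0.03 (adjusted p = 0.165) and passed without the second HK2 library (-0.13, adjusted p = 0.0185). SLC25A24, the most abundant of the 3 ATP-Mg/phosphate carriers per kb of exon, differed by 0.11 ± 0.04 (adjusted p = 0.0129) in 786-O against HK2 and did not pass elsewhere. That call ended without the second 786-O library (adjusted p = 0.0551), without the third one (adjusted p = 0.0794) and under upper-quartile scaling (adjusted p = 0.103). In 786-M1A against HK2 it passed without the second HK2 library (0.10, adjusted p = 0.0453), without the first 786-O library (0.09, adjusted p = 0.0366) or without the first 786-M1A library (0.11, adjusted p = 0.0158).

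SLC25A1 exports citrate to the cytosol, where it feeds fatty acid synthesis. It was at 99.4, 97.4 and 97.3 CPM in HK2, at 96.1, 86.8 and 89.8 in 786-O and at 137, 121 and 123 in 786-M1A. The 786-M1A libraries were the highest and the 786-O libraries the lowest, close below HK2. 786-M1A was higher than 786-O by 0.48 ± 0.048 (adjusted p = 2.41e-08) and higher than HK2 by 0.37 ± 0.048 (adjusted p = 2.93e-07). The difference of 786-O from HK2, -0.11 ± 0.048 (adjusted p = 0.0426), was lost when any single HK2 library, or the second or the third 786-O library, was left out (log2 fold change -0.08 without the second 786-O library, adjusted p = 0.197). It was also lost with limma and with no filter on low counts. SLC25A1 was the one carrier with a call in all 3 comparisons whose direction against HK2 differed between the cancer lines.

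SLC25A10 exchanges malate or succinate for phosphate. It was at 28.9, 30.4 and 29.1 CPM in HK2, at 52.7, 49.7 and 45.2 in 786-O and at 71.2, 64.5 and 61.6 in 786-M1A, in 3 separate levels. It was the one carrier tested that was called at least 2-fold higher in 786-M1A than in HK2 (1.16 ± 0.06, adjusted p = 4.99e-13), and was higher by 0.74 ± 0.061 (adjusted p = 8.48e-10) in 786-O against HK2 and by 0.42 ± 0.057 (adjusted p = 4.18e-06) in 786-M1A against 786-O. The oxoglutarate carrier SLC25A11, a part of the malate-aspartate shuttle, was at 53.0, 53.7 and 51.8 CPM in HK2, at 37.6, 34.3 and 35.4 in 786-O and at 35.6, 36.7 and 35.4 in 786-M1A. Both cancer lines were lower than HK2, each by -0.56 (adjusted p = 1.63e-10 and 2e-10), and their own difference had an interval from -0.09 to 0.10. In HK2 the CPM ratio of SLC25A10 to SLC25A11 was 0.558, and it was 1.37 in 786-O and 1.83 in 786-M1A. SLC25A21, which carries oxoadipate and oxoglutarate, was under the filter with 48 to 93 counts in HK2 libraries, 19 to 37 in 786-O and 14 to 19 in 786-M1A. With no filter on low counts it was called lower against HK2 in 786-O (-1.20, adjusted p = 2.89e-09) and in 786-M1A (-2.01, adjusted p = 7.3e-18) and lower in 786-M1A against 786-O (-0.81, adjusted p = 0.00956). Of its exon bases, 30.31% lie opposite PAX9, whose reads cannot be told apart if strand was not used in counting.

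The aspartate/glutamate carriers SLC25A12 (aralar) and SLC25A13 (citrin) send aspartate out of the matrix, and SLC25A22 and SLC25A18 bring glutamate in. SLC25A13 was by far the more abundant of the first pair and was at 168, 171 and 173 CPM in HK2, at 110, 112 and 110 in 786-O and at 129, 127 and 133 in 786-M1A. The lines did not overlap, with 786-O the lowest. The log2 fold changes were -0.63 ± 0.036 (adjusted p = 3.95e-13), -0.40 ± 0.036 (adjusted p = 9.04e-10) and 0.23 ± 0.036 (adjusted p = 1.35e-05). SLC25A12 was at 28.0, 26.2 and 26.6 CPM in HK2, at 29.5, 29.2 and 31.4 in 786-O and at 24.4, 25.6 and 25.7 in 786-M1A, so its order of lines was the opposite of that of SLC25A13 between the cancer lines. It was higher in 786-O than in HK2 by 0.16 ± 0.05 (adjusted p = 0.00597) and lower in 786-M1A than in 786-O by -0.25 ± 0.051 (adjusted p = 0.000241). For 786-M1A against HK2 the interval ran from -0.20 to 0.02 (adjusted p = 0.102), although the libraries did not overlap. Under upper-quartile scaling this difference passed (-0.14, adjusted p = 0.0163).

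In each library SLC25A12 had fewer CPM than SLC25A13, with a mean log2 ratio of -2.66 ± 0.068 (SD) in HK2 libraries, -1.88 ± 0.063 in 786-O and -2.36 ± 0.047 in 786-M1A. SLC25A22 was at 30.7, 31.4 and 31.2 CPM in HK2, at 37.4, 37.1 and 34.5 in 786-O and at 40.6, 39.8 and 36.1 in 786-M1A. Both cancer lines were above HK2 (0.22 ± 0.052, adjusted p = 0.000446, and 0.32 ± 0.052, adjusted p = 6.68e-06) and overlapped with each other (0.10, interval -0.01 to 0.20), a difference that passed without the third 786-M1A library (0.15, adjusted p = 0.0243). SLC25A18 was under the filter, with 14 to 29 counts in any library.

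The other carriers of amino acids were split in 3 ways. SLC25A15, which exchanges ornithine for citrulline in the urea cycle, was higher in both cancer lines, the basic amino acid carrier SLC25A29 was lower in both, and the branched-chain amino acid carrier SLC25A44 passed in none of the comparisons. SLC25A15 (chr13:40789611-40812460) was at 17.8, 19.9 and 18.0 CPM in HK2, at 31.1, 31.8 and 31.5 in 786-O and at 27.0, 28.9 and 28.7 in 786-M1A. The lines stood apart, and the log2 fold changes were 0.76 ± 0.054 (adjusted p = 1.58e-11), 0.60 ± 0.055 (adjusted p = 9.97e-10) and -0.16 ± 0.051 (adjusted p = 0.0133), the last of which did not pass without the first 786-M1A library (adjusted p = 0.0549). SLC25A29 (chr14:100278567-100306444) was at 29.0, 27.8 and 27.5 CPM in HK2, at 10.8, 10.3 and 9.07 in 786-O and at 11.4, 10.7 and 9.94 in 786-M1A. The cancer lines overlapped with each other far below HK2, with log2 fold changes of -1.48 ± 0.066 (adjusted p = 5.08e-15) and -1.39 ± 0.067 (adjusted p = 1.51e-14) against HK2 and an interval from -0.06 to 0.25 between them.

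SLC25A44 was at 55.1, 52.3 and 50.5 CPM in HK2, at 54.1, 53.8 and 54.1 in 786-O and at 52.3, 56.7 and 56.1 in 786-M1A, with overlap everywhere. The 95% intervals of its log2 fold changes ran from -0.05 to 0.13, from -0.03 to 0.16 and from -0.07 to 0.12 in the 3 comparisons. With limma or without the first 786-M1A library the difference of 786-M1A from HK2 passed at 0.10 (adjusted p = 0.0441 and 0.0447). SLC25A2, the second ornithine carrier, had 0 counts in all 9 libraries. SLC25A38, a glycine carrier needed for heme synthesis, passed in none of the comparisons and averaged 31.6, 30 and 31.5 CPM in HK2, 786-O and 786-M1A.

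The carnitine/acylcarnitine carrier SLC25A20, which takes fatty acyl groups into the matrix for oxidation, was at 5.67, 5.57 and 6.25 CPM in HK2, at 10.6, 9.25 and 9.57 in 786-O and at 8.61, 8.47 and 8.67 in 786-M1A. Its libraries did not overlap between lines. The cancer lines were higher than HK2 by 0.75 ± 0.08 (adjusted p = 1.62e-08) and 0.55 ± 0.082 (adjusted p = 2.22e-06). Between 786-M1A and 786-O the difference of -0.19 ± 0.075 (adjusted p = 0.0344) did not pass when the first 786-O library or any 786-M1A library was left out (log2 fold change -0.13 without the first 786-O library, adjusted p = 0.21). CPT1A, which forms acylcarnitine on the outer membrane, went the other way, at 11.5 ± 0.308, 5.04 ± 0.44 and 2.14 ± 0.143 CPM in HK2, 786-O and 786-M1A (SD, n = 3). CPT2, the other carnitine enzyme read, did not. It was higher in 786-O than in HK2 (0.24, adjusted p = 0.000261) and was not called in 786-M1A against HK2 (0.07, adjusted p = 0.213). The 3 members on the short arm of chromosome 3, a region often lost in ccRCC, were SLC25A20, SLC25A26 and SLC25A38, and none was called lower in a cancer line than in HK2, except SLC25A38 in 786-O under upper-quartile scaling (-0.12, adjusted p = 0.0473). Copy number was not analysed here.

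SLC25A33 and SLC25A36 carry pyrimidine nucleotides into mitochondria. SLC25A33 (chr1:9539465-9585173) was at 10, 11.2 and 11.7 CPM in HK2, from 311 to 540 counts, and at 0 counts in each of the 6 cancer libraries. These 0 counts stood in 123988042 counts of 786-O and 116066339 of 786-M1A. Against 3 counts per library, the limit that a count of 0 allows, it was at least 137.6-fold lower in 786-O (adjusted p = 2.38e-16) and at least 136.4-fold lower in 786-M1A (adjusted p = 3.21e-16). It passed the filter through HK2 alone, and 71 of the 12695 genes tested (0.559%) had 0 counts in all 6 cancer libraries. SLC25A36 was lower in both cancer lines, at 81.6, 76.6 and 75.7 CPM in HK2, at 48.2, 48.4 and 50.5 in 786-O and at 49.3, 51.2 and 48.6 in 786-M1A, by -0.67 ± 0.043 (adjusted p = 3.71e-12) and -0.65 ± 0.044 (adjusted p = 6.06e-12). The cancer lines overlapped in SLC25A36 (interval of the difference -0.07 to 0.11).

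**Figure D3:**
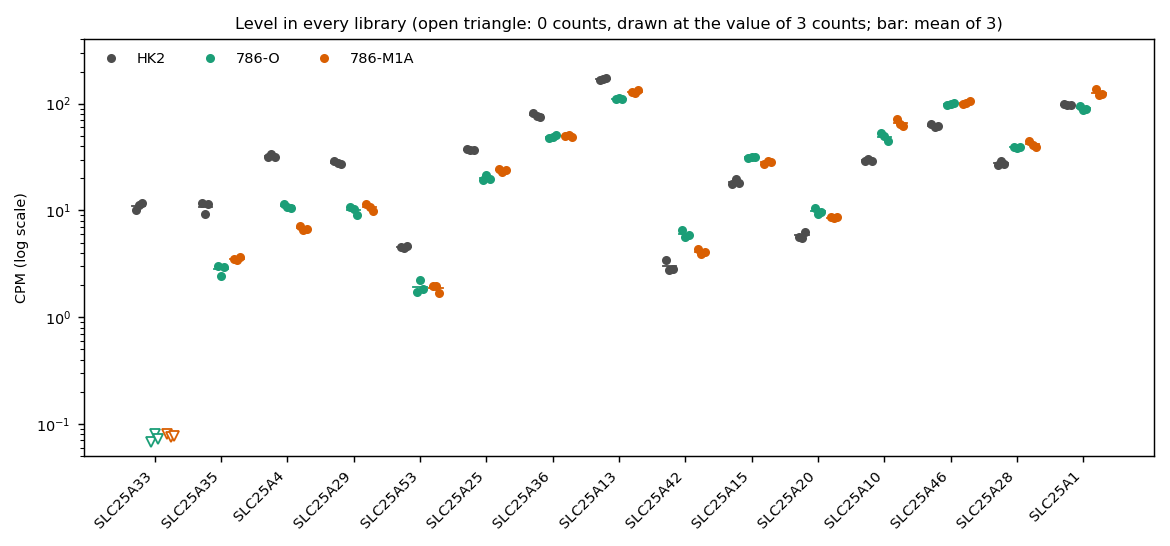
Level of 15 carriers in every library (CPM, log axis), with 3 points per line and a bar at their mean. Open triangles mark 0 counts of SLC25A33 drawn at the level of 3 counts. The HK2 libraries of SLC25A33 lie between 10 and 11.7 CPM, those of SLC25A4 fall in 3 steps from 33.9 to 6.62 CPM and those of SLC25A10 climb from 28.9 to 71.2 CPM.

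The genes next to SLC25A33, looked at after its values were seen, were detected in the cancer lines. TMEM201, 3.7 kb away, averaged 60.7 ± 1.92 CPM in HK2 libraries, 42.4 ± 3.33 in 786-O and 45.3 ± 1.9 in 786-M1A, and SPSB1, the nearest gene tested on the other side, 32.3 ± 0.626, 26.0 ± 1.34 and 25.5 ± 1.22 (SD, n = 3). PIK3CD averaged 58.5, 42.5 and 56.7 CPM and CLSTN1 410, 479 and 448 CPM. Within 600 kb, RBP7, 412.1 kb away, was the other gene tested that was near 0 in both cancer lines, with 1073 to 1629 counts per library in HK2 and 0 or 1 in each cancer library. The span between the pair held genes tested in all lines, among them LZIC at 34.6, 35.0 and 33.3 CPM.

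**Figure D4:**
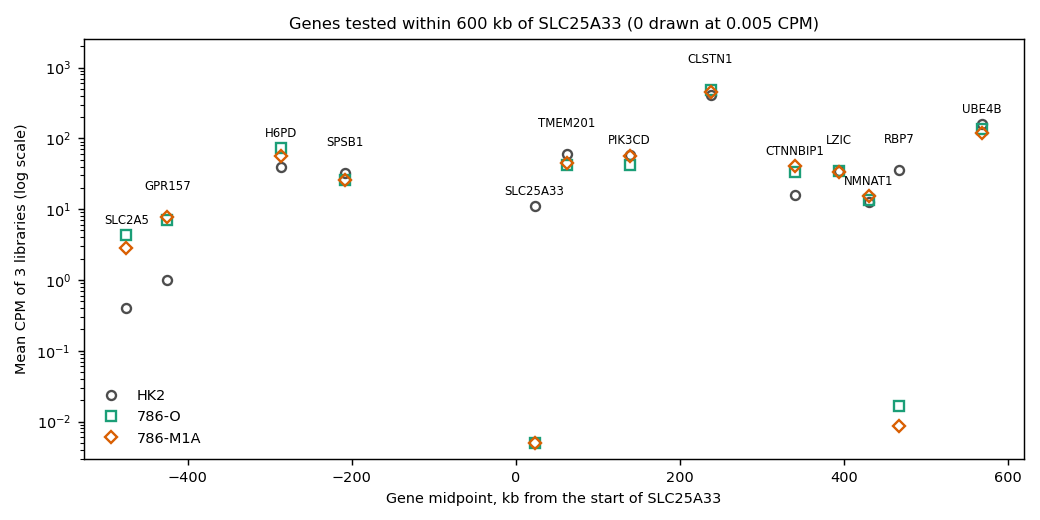
Mean CPM of 3 libraries (log axis) of the genes tested within 600 kb of SLC25A33, against the distance of the gene's midpoint from the start of SLC25A33 in kb. Circles are HK2, squares 786-O and diamonds 786-M1A, with 0 drawn at 0.005. SLC25A33 and RBP7 are the genes with cancer lines at the bottom of the plot, and those between them lie above 10 CPM in all lines.

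The group of cofactor and nucleotide carriers as a whole had 7 of 10 members tested called against HK2 in each cancer line (3 higher and 4 lower, 70.0% beside 84.2% and 84.9% of all genes) and 2 of 10 between the cancer lines (20.0% beside 56.0%). SLC25A42, which takes up coenzyme A, was at 3.45, 2.76 and 2.81 CPM in HK2, at 6.54, 5.69 and 5.91 in 786-O and at 4.34, 3.89 and 4.05 in 786-M1A. The 3 lines were apart, with log2 differences of 1.03 ± 0.1 (adjusted p = 7.21e-09), 0.46 ± 0.11 (adjusted p = 0.000768) and -0.57 ± 0.099 (adjusted p = 4.76e-05). The first of these was under 2-fold without the second or the third HK2 library (0.98 each) and without the first 786-O library (0.97). SLC25A16, long linked to coenzyme A as well, was lower in both cancer lines (-0.36 ± 0.065 and -0.33 ± 0.065), so that the CPM ratio of SLC25A16 to SLC25A42 was 6.61 in HK2 libraries, 2.54 in 786-O and 3.84 in 786-M1A. The folate and FAD carrier SLC25A32 was higher in both (0.34 ± 0.041 and 0.42 ± 0.041), as was the S-adenosylmethionine carrier SLC25A26 (0.28 ± 0.066 and 0.26 ± 0.067). Of their exon bases, 11.11% lie opposite DCAF13 for SLC25A32 and 12.25% opposite LRIG1 for SLC25A26. Reads of these genes cannot be told apart if strand was not used in counting. SLC25A17, a peroxisomal carrier, was higher in 786-M1A than 786-O by 0.23 ± 0.049 (adjusted p = 0.000389). The NAD carriers SLC25A51 and SLC25A52 passed in no comparison, and their intervals of 786-M1A against HK2 ran from -0.32 to 0.07 and from -0.60 to 0.02. Without the third HK2 library SLC25A52 passed in that comparison (-0.43, adjusted p = 0.0159).

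The mitochondrial iron importers SLC25A37 (mitoferrin-1) and SLC25A28 (mitoferrin-2) went opposite ways. SLC25A37 was at 34.3, 32.8 and 31.8 CPM in HK2, at 20.8, 21.1 and 22.4 in 786-O and at 18.5, 20.1 and 21.2 in 786-M1A. SLC25A28 was at 26.6, 29.1 and 27.5 CPM in HK2, at 39.0, 38.2 and 39.4 in 786-O and at 45.2, 41.1 and 39.7 in 786-M1A. Against HK2, SLC25A37 was lower by -0.62 ± 0.055 (adjusted p = 9.71e-10) and -0.73 ± 0.057 (adjusted p = 8.16e-11), and SLC25A28 higher by 0.49 ± 0.053 (adjusted p = 2.26e-08) and 0.60 ± 0.053 (adjusted p = 7.67e-10). Neither differed past the threshold between the cancer lines, with intervals from -0.23 to 0.02 and from 0.0 to 0.22. Without the third 786-M1A library the difference of SLC25A28 passed at 0.15 (adjusted p = 0.029). The CPM ratio of SLC25A28 to SLC25A37 was 0.84 in HK2 libraries, 1.81 in 786-O and 2.11 in 786-M1A. Of the glutathione carriers, SLC25A39 was at 140, 144 and 138 CPM in HK2, at 192, 183 and 175 in 786-O and at 173, 157 and 160 in 786-M1A. It was higher than HK2 in both cancer lines (0.38 ± 0.043 and 0.22 ± 0.043) and lower in 786-M1A than 786-O (-0.17 ± 0.043, adjusted p = 0.00219). SLC25A40, the other glutathione carrier, was called lower in 786-O than in HK2 (-0.10, adjusted p = 0.0347). It was not called in 786-M1A against HK2 (0.09, adjusted p = 0.051). Under several alternatives the first call was lost and the second gained. Between the cancer lines SLC25A40 was higher in 786-M1A than 786-O by 0.20 ± 0.043 (adjusted p = 0.000625).

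**Figure D5:**
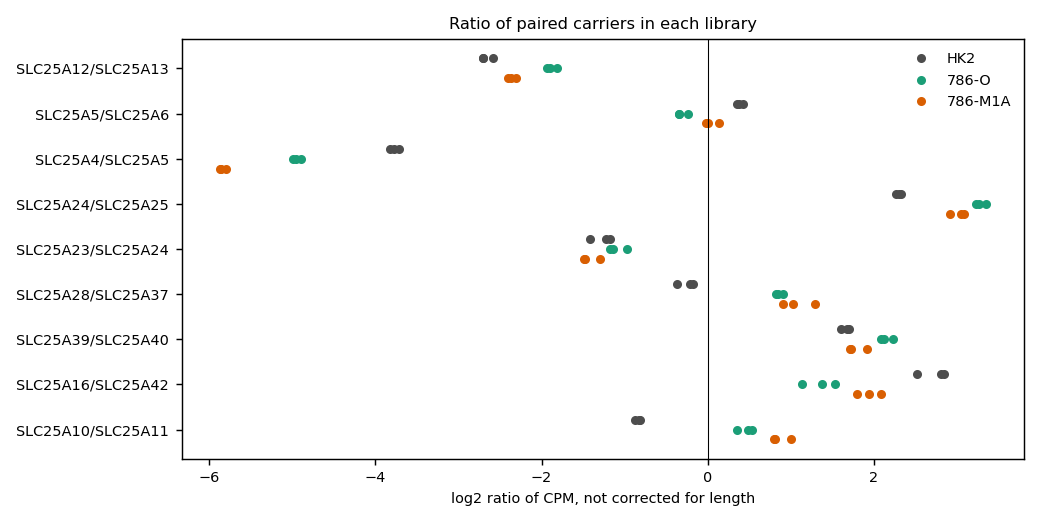
Log2 ratio of the CPM of 9 pairs of related carriers in each library, without correction for length, with 3 points per line. The points of SLC25A28/SLC25A37 and SLC25A10/SLC25A11 lie below 0 in HK2 and above 0 in both cancer lines, and those of SLC25A12/SLC25A13 are lowest in HK2 and highest in 786-O.

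Of the carriers close to the uncoupling proteins, SLC25A14 was lower in both cancer lines than in HK2 (-0.45 ± 0.08 and -0.30 ± 0.08). SLC25A30 was at 48.6, 47.7 and 46.4 CPM in HK2, at 47.2, 48.8 and 49.5 in 786-O and at 37.5, 43.8 and 43.3 in 786-M1A. The 786-M1A libraries lay below all others, by -0.19 ± 0.053 (adjusted p = 0.00201) from HK2 and -0.22 ± 0.053 (adjusted p = 0.00113) from 786-O. SLC25A27 was under the filter, with 9 to 15 counts in HK2 libraries, 8 to 18 in 786-O and 0 to 2 in 786-M1A. With no filter on low counts it was called lower in 786-M1A than in HK2 (-3.35, adjusted p = 1.24e-06) and than in 786-O (-3.40, adjusted p = 1.42e-06), on these few counts.

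The remaining carriers have little known or no transport function, or sit in the outer membrane as SLC25A46 does, which acts in mitochondrial dynamics. SLC25A35 (chr17:8287763-8295400) was at 11.8, 9.32 and 11.4 CPM in HK2, at 3.02, 2.42 and 2.98 in 786-O and at 3.49, 3.42 and 3.65 in 786-M1A. HK2 was far above the cancer lines, which were just apart. The log2 fold changes were -1.94 ± 0.11 (adjusted p = 1.65e-13), -1.62 ± 0.1 (adjusted p = 2.51e-12) and 0.32 ± 0.13 (adjusted p = 0.0389). The last call ended without the second 786-O library (log2 fold change 0.23, adjusted p = 0.168) or without any of the 786-M1A libraries, and 28.69% of the exon bases of SLC25A35 lie opposite RANGRF, whose reads cannot be told apart if strand was not used in counting. SLC25A53 (chrX:104099214-104157009) was at 4.54, 4.47 and 4.61 CPM in HK2, at 1.74, 2.21 and 1.84 in 786-O and at 1.94, 1.98 and 1.67 in 786-M1A. It was lower in both cancer lines, which overlapped, by -1.24 ± 0.11 (adjusted p = 1.58e-09) and -1.29 ± 0.12 (adjusted p = 1.32e-09).

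SLC25A46 was at 64.1, 60.9 and 61.6 CPM in HK2, at 97.7, 100 and 101 in 786-O and at 100, 101 and 105 in 786-M1A. It was higher in both cancer lines, by 0.68 ± 0.04 (adjusted p = 5.46e-13) and 0.71 ± 0.04 (adjusted p = 2.43e-13), with an interval from -0.05 to 0.11 between them. SLC25A43, which lies 14.0 kb from SLC25A5 on the X chromosome, was at 31.8, 30.2 and 34.8 CPM in HK2, at 38.4, 37.6 and 40.9 in 786-O and at 45.5, 45.5 and 48.4 in 786-M1A. It was one of 2 carriers, beside SLC25A10, that were higher in 786-O than in HK2 and higher again in 786-M1A (0.27 ± 0.054, 0.52 ± 0.054 and 0.25 ± 0.053). Of the carriers tested, SLC25A4 was the one that was lower at both steps. SLC25A34, SLC25A41, SLC25A45, SLC25A47 and SLC25A48 were under the filter, with at most 32 counts in any library. With no filter SLC25A41 was called higher against HK2 in 786-O (2.73, adjusted p = 0.00515) and in 786-M1A (2.78, adjusted p = 0.00448), on at most 7 counts in a library.

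Summed over all 48 members, the carriers came to 2875 to 2970 CPM in HK2 libraries. The sums were 2660 to 2729 CPM in 786-O and 2703 to 2771 in 786-M1A. HK2 lay above both cancer lines. The 3 carriers with the most CPM, SLC25A3, SLC25A5 and SLC25A6, made up between 43.2% and 48.8% of the sum. Without them the sum was 1510 to 1522 CPM in HK2 libraries, 1488 to 1503 in 786-O and 1525 to 1544 in 786-M1A. Per kb of exon the order began with SLC25A5 (285 CPM per kb), SLC25A6 (218), SLC25A3 (70.1), SLC25A1 (49.0) and SLC25A13 (46.0) in HK2, with SLC25A6 (270), SLC25A5 (217), SLC25A39 (52.0), SLC25A3 (49.0) and SLC25A1 (45.5) in 786-O and with SLC25A5 (251), SLC25A6 (245), SLC25A1 (63.4), SLC25A3 (47.5) and SLC25A39 (46.4) in 786-M1A. In 786-M1A the levels of the first pair overlapped between libraries. The order depended on the length used. With the length of the canonical transcript, SLC25A39 (88.9 CPM per kb) stood above SLC25A1 (63.3) in HK2, and SLC25A13 ranked 6. In 786-M1A SLC25A39 (103) then stood above SLC25A1 (81.8) as well.

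RNA levels for proteins around these carriers were read from lists of 44 genes, of which 41 were tested. In 786-O against HK2, 37 passed (20 higher, 17 lower), in 786-M1A against HK2 36 (15 higher, 21 lower) and in 786-M1A against 786-O 25 (10 higher, 15 lower). These were 90.2%, 87.8% and 61.0% of the list, where 84.2%, 84.9% and 56.0% of all genes passed. UCP2, a family member under another symbol, averaged 183 ± 6.57 CPM in HK2 libraries, 34.4 ± 1.1 in 786-O and 19.6 ± 0.936 in 786-M1A, a difference of -2.41 and -3.22 from HK2 and of -0.81 between the cancer lines. Of 12 genes for the import of carriers into the inner membrane, 10 passed in 786-O against HK2 (7 higher, 3 lower), which is 83.3% beside 84.2% of all genes, and none reached 2-fold, beside 22.3% of all genes. TIMM9 was lower (-0.79, adjusted p = 1.08e-11) and its partner chaperone TIMM10 higher (0.68, adjusted p = 2.44e-10). Of the shuttle enzymes beside SLC25A11, SLC25A12 and SLC25A13, RNA of GOT1, GOT2 and MDH1 was lower in both cancer lines than in HK2. That of MDH2 was higher (0.26, adjusted p = 2.4e-06, and 0.57, adjusted p = 7.69e-12). In the proteomics of the study GOT1 was instead higher in ccRCC cells, and GOT2 was suppressed. CPS1, the first enzyme of the urea cycle in the matrix, was higher in both, at 23.5 ± 1.27, 67.0 ± 3.53 and 67.6 ± 2.95 CPM, and OTC, which makes the citrulline that SLC25A15 carries out, was at 0 in all libraries. ACLY, which cleaves the citrate that SLC25A1 exports, averaged 872 ± 33.9, 1010 ± 17.9 and 734 ± 9.05 CPM and was lower in 786-M1A than 786-O (-0.45, adjusted p = 2.59e-10).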

How the data were processed

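RNA of HK2, 786-O and 786-M1A was sequenced from 3 TruSeq Stranded mRNA libraries of each. A figure legend of the study describes its RNA-seq values as means from 3 independent cultures. Which dish gave which library is not given in the sources used here. The authors counted reads on genes with featureCounts of the Rsubread package on hg38 and deposited raw counts for 28395 NCBI gene identifiers; the annotation release and the use of strand are not given in the sources used here. Symbols and promoters came from RefSeq (GRCh38.p14; 27741 identifiers had a symbol), and positions, exon lengths and overlapping genes from GENCODE on GRCh38. The 12695 genes averaging 50 counts or more entered a robust quasi-likelihood fit of edgeR 4.0.16 (TMM, R 4.3.3), with all 9 libraries and 1 mean for each line, in place of the limma fit of VSN values in the study because raw counts were at hand. The Benjamini-Hochberg adjustment covered every gene tested. Tools were tested on simulated counts. Between 3 and 3 libraries an exact permutation test cannot go below p = 0.1 and is not printed. SE is the log2 fold change divided by the root of F, and SD is over 3 libraries. Floors are 3 counts per library (0.0661 to 0.0993 CPM) on totals without TMM factors (0.967 to 1.03) and cover counting error only.

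Library values are given for the 6 highest and the 6 lowest carriers by log2 fold change in a comparison, among those called and without overlap of libraries, for the ADP/ATP and amino acid carriers and for carriers called in opposite directions against HK2. Members and lists were chosen with earlier results of these data known. Alternatives were RLE and upper-quartile scaling, DESeq2 1.42.0, limma 3.58.1 on median-centred log2 counts, no filter, at least 10 counts in each library, a fit without the line not compared, a block for the replicate number, and fits that each lacked 1 library. The counts of carriers cover all members, and the values of 1 member are not reported here.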

Additional observations from a re-analysis of the deposited data

Results flagged for a closer look

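SLC25A1 was flagged because its difference from HK2 was not the same in the 2 cancer lines. The difference between these differences, which is the contrast of 786-M1A with 786-O, was 0.48 on the log2 scale (edgeR, adjusted p = 2.41e-08), with all 3 libraries of 786-M1A above all 3 of 786-O. This was not particular to SLC25A1. In the same contrast 18 of the 38 carriers tested passed, beside 56.0% of all genes, and SLC25A4 (-0.69) and SLC25A42 (-0.57) differed by more. Against HK2 SLC25A1 was higher in 786-M1A and called lower in 786-O by a small margin that several alternatives removed.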

How the results depend on the processing

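No result changed direction past the threshold under any alternative. The number of carriers called ranged from 29 to 33 in 786-O against HK2, from 28 to 35 in 786-M1A against HK2 and from 16 to 19 in 786-M1A against 786-O (29 to 32, 28 to 32 and 16 to 18 when single libraries were left out). With at least a 2-fold difference in addition, the ranges without single libraries were 5 to 6, 6 to 6 and 0 to 0. With no filter on low counts the number at 2-fold was 10 in 786-M1A against HK2 (2 higher, 8 lower) in place of 6, and 1 (SLC25A27) in 786-M1A against 786-O in place of 0, because 9 more carriers entered; in 786-O against HK2 it was 9. With the replicate number as a replicate block, 32, 31 and 18 carriers were called, and 6, 6 and 0 with 2-fold. In 786-M1A against HK2 the block added SLC25A24 (adjusted p = 0.0409) and SLC25A40 (adjusted p = 0.0419). Deviations of libraries with the same number correlated between -0.167 and 0.215, so the numbers were not taken as pairs. Changed calls concerned carriers with small differences: in 786-O against HK2 SLC25A1, SLC25A17, SLC25A24 and SLC25A40 were lost and SLC25A38 gained under at least one alternative, in 786-M1A against HK2 7 were gained, and in 786-M1A against 786-O SLC25A6, SLC25A15, SLC25A20 and SLC25A35 were lost and 4 gained. Upper-quartile scaling, and leaving out the second or the third HK2 library or the first 786-O library, left SLC25A42 under 2-fold in 786-O against HK2 (0.97 to 0.99). Other scalings moved the median of all genes by at most 0.048. Each line had 3 libraries, and carriers under the filter were too shallow for a firm statement.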
